A study of Mus musculus with 8 samples.

Results

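The histone cluster genes are the genes for the core histones H2A, H2B, H3 and H4 and the linker histone H1 that lie together in clusters in the mouse genome. They were chosen by symbol, as every probe outside the control spots whose name in the scanner files starts with Hist1h, Hist2h, Hist3h or Hist4h. This gave 44 of 41174 probes and 34 of 28782 named genes: 6 for H1, 11 for H2A, 8 for H2B, 3 for H3 and 6 for H4. The cells were Ly-6C-high monocytes, circulating phagocytes with a high surface level of Ly-6C, from 4 blood and 4 spleen samples on 1-colour Agilent arrays. All came from untreated, chow-fed female C57BL/6 mice, an inbred strain, aged 8 to 12 weeks, with 4 mice in all. Both tissues were sorted with the same gate, which took cells bright for Ly-6C and CD11b that carried little CD90, B220, CD49b, NK1.1, Ly-6G, F4/80, I-Ab or CD11c. Every sample held 1000 cells, and RNA integrity numbers were at least 8. From each, 5 ng of RNA was amplified with a whole-transcript kit, which primes cDNA at random positions as well as at poly(A) tails. The study compared monocytes stored in the spleen with those in blood. No label ties a sample number to a mouse, and the spread behind each p-value is that of these samples alone, which may be technical in part.

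Most genes of these clusters are copied in large amounts only while a cell replicates its DNA, when new chromatin has to be packed. Their mRNAs have no introns, and most end in a conserved stem-loop, bound by the protein Slbp, in place of a poly(A) tail. Circulating monocytes are non-dividing cells for the most part, while their precursors in bone marrow divide. Replacement histones, by contrast, come from genes elsewhere in the genome and are made throughout the cell cycle.

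The members of a type encode nearly the same protein, so probes for different genes can hold nearly the same letters. The 4 H2B probes below are shown because 4 of the largest differences between tissues came from them. Capitals mark letters that differ from the Hist1h2bm probe where the 2 overlap, and positions are on the mouse build mm7. The probes lie at chr13:21088259-21088318 on the plus strand for Hist1h2bm, at chr13:21402048-21402107 on the plus strand for Hist1h2bk, at chr11:59035740-59035799 on the minus strand for Hist3h2bb and at chr13:23299744-23299803 on the minus strand for Hist1h2ba.
Hist1h2bm: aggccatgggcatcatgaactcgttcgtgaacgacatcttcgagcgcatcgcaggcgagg
Hist1h2bk: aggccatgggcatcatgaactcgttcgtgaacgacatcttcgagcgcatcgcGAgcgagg
Hist3h2bb: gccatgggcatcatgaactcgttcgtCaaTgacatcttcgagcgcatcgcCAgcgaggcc
Hist1h2ba: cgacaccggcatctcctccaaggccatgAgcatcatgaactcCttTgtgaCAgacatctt
The Hist1h2bm and Hist1h2bk probes were equal at 58 of 60 bases, with an unbroken shared run of 52. Hist3h2bb was equal to Hist1h2bm at 54 of 58 overlapping bases, and Hist1h2ba at 35 of 40. A transcript of one of these genes could therefore bind the probe of another, and the 4 readings are not independent.

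Probes for 3 H2A genes and for 3 H4 genes are shown for the same reason. Capitals again mark differences from the first line of each set. The H2A probes lie at chr13:21119757-21119816 (Hist1h2ak, minus strand), chr13:21153148-21153207 (Hist1h2ai, minus strand) and chr13:22899920-22899979 (the tested Hist1h2af probe, plus strand).
Hist1h2ak: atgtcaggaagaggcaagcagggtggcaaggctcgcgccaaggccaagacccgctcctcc
Hist1h2ai: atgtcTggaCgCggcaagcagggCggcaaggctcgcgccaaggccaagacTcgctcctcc
Hist1h2af: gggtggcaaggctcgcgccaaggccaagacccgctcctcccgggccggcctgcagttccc
Hist1h2ak and Hist1h2ai were equal at 55 of 60 bases, and this Hist1h2af probe at all 40 of the bases it shares with Hist1h2ak. The H4 probes lie at chr13:22947598-22947657 (Hist1h4d, plus strand), chr13:22917373-22917432 (Hist1h4f, minus strand) and chr3:96136980-96137039 (Hist2h4, minus strand).
Hist1h4d: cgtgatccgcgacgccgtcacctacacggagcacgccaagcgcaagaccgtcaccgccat
Hist1h4f: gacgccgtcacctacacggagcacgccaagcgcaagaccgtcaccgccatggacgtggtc
Hist2h4: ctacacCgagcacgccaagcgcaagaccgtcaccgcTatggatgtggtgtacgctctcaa
Hist1h4d and Hist1h4f were equal over all 50 overlapping bases, and Hist1h4d and Hist2h4 at 37 of 39. Probes were counted as alike when they overlapped over at least 30 bases with at least 80% equal, or shared a run of at least 20 bases. By this measure 16 of the 44 probes had a like probe for another member, and the 44 fell into 33 groups.

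Values are log2 brightness from the authors' table, in which a level of 6.8 marks the background. Before the results, 1 fault of the deposit matters: in blood 1, 2 and 3, table column and scanner file came from different arrays, with rank correlations of 0.842, 0.852 and 0.872 between them, against values that round to 1 in the other 5. The table is used throughout, and values from the 5 matching arrays, which hold 1 blood sample, are given beside the types and the genes that differed most. On these, between 26555 and 29588 probes stood well above background. The sorted cells carried monocyte transcripts in both tissues, with Ccr2, Csf1r, Fcgr1 and Adgre1 at 12.56 or more in every sample with a value. Granule genes of neutrophils were also present, and 9 of 10 tested had a higher mean in spleen, although the gate removed Ly-6G-high cells.

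Of the 34 genes, 29 could be tested, having at least 3 values per tissue and 4 or more arrays at the background level. In 24 of these the mean was higher in spleen and in 5 it was lower, or 82.8% higher against 48.8% of all 18265 genes tested. The median difference was 0.33 (spleen minus blood, log2), from -0.84 to 1.02, against -0.01 over all genes, and 0.25 over the 33 members with enough values when no filter on level was used. At an unadjusted p under 0.05 in limma's moderated test, 8 members were higher in spleen, against 3.09% of all genes, and 1 was lower, against 2.34%. The 8 were Hist1h1c, Hist1h2ab, Hist1h2ak, Hist1h2ba, Hist1h2bk, Hist1h2bm, Hist3h2bb and Hist2h3c1, and the 1 lower was Hist2h2be. None passed after Benjamini-Hochberg adjustment over all genes, where 0.00% of genes (0 of 18265) were called and 992 (5.43%) had an unadjusted p under 0.05. The smallest adjusted p of a member was 0.729, and it ranged from 0.406 to 1 over the alternative settings. The count rested in part on like probes: the 29 genes fell into 22 groups of like probes, the 8 higher genes came from 5 of them, and with 1 gene kept for each group 4 were higher and the median was 0.17.

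**Figure D1:**
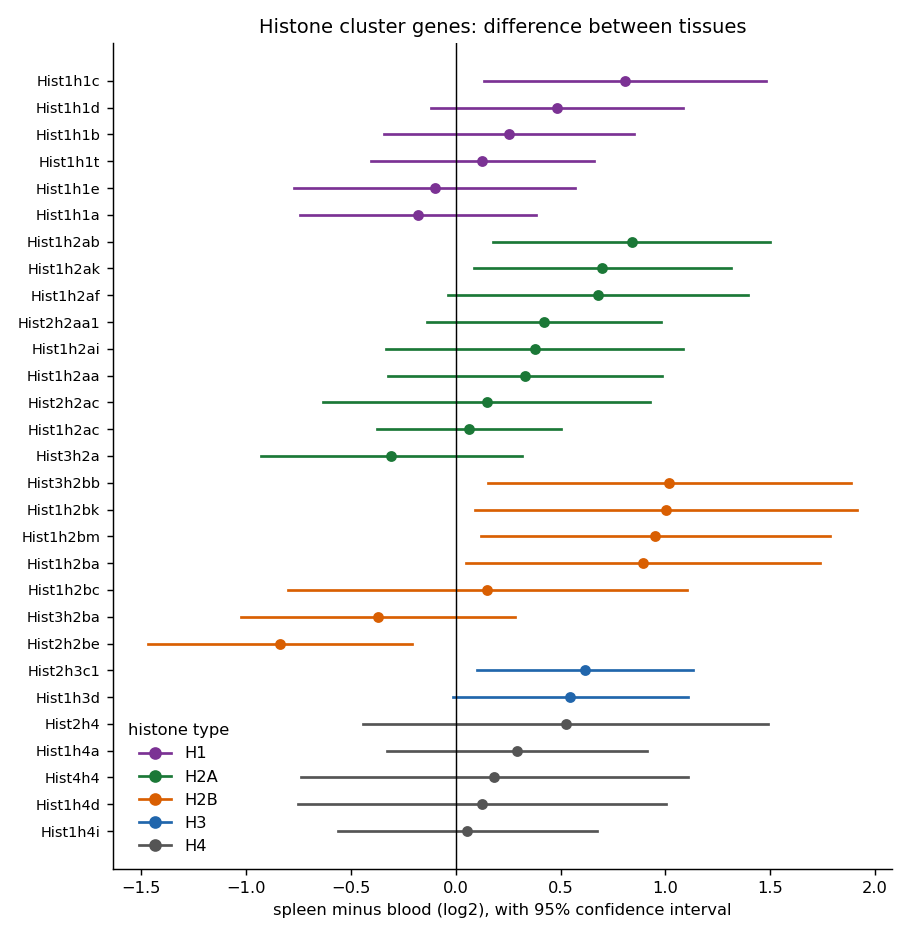
Spleen minus blood difference (log2) of the 29 tested histone cluster genes, by type; points are the difference of the means of 4 samples per tissue (fewer where a value is missing) and lines the 95% confidence interval. Points lie to the right of 0 for 24 genes, and Hist2h2be at -0.84 is the lowest.

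The count of 8 depended on single samples. It was 2 without blood 1, 2 without blood 2, 1 without spleen 2 and 1 without spleen 3, and it was 0 over the 5 matching arrays, 0 in the scanner files at the 75th percentile and 1 in them with normexp. Over all members the medians of the samples were 10.85, 11.25, 11.67 and 12.05 in blood 1 to 4 and 11.69, 12.29, 12.53 and 11.82 in spleen 1 to 4. Blood 4 thus lay above spleen 1 and 4, and the other blood medians lay below all those of spleen. Blood 4 and spleen 4 are the only samples known to share a slide, and between them the median difference of the members was -0.09. In samples of many cells, fewer cells that carry a transcript and less of it per cell cannot be told apart.

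Linker histone H1 genes, whose proteins bind the DNA between nucleosomes, had a median difference of 0.19, with 4 of 6 higher in spleen. The median was 0.06 without blood 2 and 0.01 over the 5 matching arrays. Hist1h1c (H1f2 in current RefSeq) was 1 of 2 members, of 29, with no overlap between tissues, against 3.30% of all genes. It stood at 10.11, 9.98, 10.22 and 10.39 in blood 1 to 4 and at 10.43, 10.54, 11.34 and 11.63 in spleen 1 to 4. Every spleen value was above every blood value, with spleen 1 and 2 just above blood 4 and spleen 3 and 4 well clear of it. It came to 0.81 ± 0.30 (SE, n = 4 per tissue; adjusted p = 0.777 in limma), a fold of 1.75. The probe sits at chr13:23105951-23106010 (mm7) and was like no other member's. In the scanner files with normexp background correction, which include the 3 other blood arrays, the difference was -0.03.

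Among all genes, 1.88% had every spleen value above every blood value and 1.41% every one below, and 1 of 29 members did each. Hist1h1b measured 10.32, 10.41, 11.1 and 11.05 in blood and 10.57, 11.04, 11.27 and 11.02 in spleen. Its values overlapped, with a difference of 0.25 ± 0.26 (SE) and a 95% interval from -0.34 to 0.85. Hist1h1d measured 8.15, 8.68, 8.38 and 9.05 in blood and 9.17, 9.43, 8.96 and 8.64 in spleen, where 2 of the 4 spleen values exceeded all those of blood. Its difference was 0.48 ± 0.27 (SE, adjusted p = 0.974 in limma). A second Hist1h1d probe was under the background level in all 4 blood samples and reached 7.02, 7.22 and 7.8 in spleen 1, 3 and 4, and the remaining one was below it on every array. Differences of Hist1h1b and Hist1h1d were -0.08 and -0.0032 over the 5 matching arrays. The remaining H1 genes were Hist1h1a, Hist1h1e and the testis form Hist1h1t, with differences of -0.18, -0.10 and 0.13.

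H2A, which pairs with H2B in the nucleosome core, had 9 tested genes, of which 8 had a higher mean in spleen, with a median difference of 0.38, or 0.13 over the 5 matching arrays and 0.25 without spleen 3. Hist1h2ab had the smallest p of the type, but at a low level. It measured 6.52, 6.46, 7.01 and 6.74 in blood and 7.18, 8.09, 7.87 and 6.95 in spleen. All but 1 of its blood values were under the background level, whereas all 4 spleen values were above it, and blood 3 overlapped spleen 4. The difference was 0.84 ± 0.29 (SE, n = 4 per tissue; adjusted p = 0.740 in limma), with 3 of the 4 blood values giving no level above background.

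Hist1h2ak measured 11.78, 11.52, 12.09 and 12.38 in blood and 12.24, 13.1, 12.78 and 12.45 in spleen. Only blood 4 reached into the spleen range, above spleen 1. Its difference was 0.70 ± 0.27 (SE; adjusted p = 0.810 in limma), and 0.26 over the 5 matching arrays. The near-identical Hist1h2ai probe differed by 0.38, and the tested Hist1h2af probe by 0.68 with an interval from -0.04 to 1.39. These genes encode canonical H2A, and their probes cannot assign the signal to 1 of them.

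Hist1h2aa encodes an H2A form known from testis, yet its probe read 13.54, 14.08 and 13.87 in blood 1 to 3 and 13.79, 14.13, 14.72 and 14 in spleen. Blood 4 has no value for it and was left out of its fit, which gave 0.33 ± 0.29 (SE). The tissues overlapped. This probe shares its first 44 bases with a second Hist1h2af probe, which had no value in spleen 3 and 4 and was not tested. Their letters follow, with those that differ in capitals, at chr13:23300592-23300651 and chr13:22900228-22900287, both on the plus strand (mm7).
Hist1h2aa: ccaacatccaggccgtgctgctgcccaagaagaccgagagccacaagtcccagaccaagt
Hist1h2af: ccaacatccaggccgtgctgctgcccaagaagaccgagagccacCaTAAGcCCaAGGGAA
Both also share a run of 29 bases with a probe of H2afj, a replacement H2A gene, so a high reading of Hist1h2aa here does not identify a testis transcript. Hist2h2ac, an H2A gene of cluster 2 on chromosome 3, measured 12.85, 14.04, 13.49 and 14.01 in blood and 13.39, 14.29, 14.05 and 13.25 in spleen. Its tissues overlapped throughout, and its difference of 0.15 ± 0.35 (SE) had an interval from -0.63 to 0.93. It turned to -0.10 without blood 1 and to -0.03 without spleen 2, and its probe shares a run of 51 bases with that of another, unnamed transcript.

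Hist3h2a, in the cluster 3 group on chromosome 11, was the only tested H2A gene with a lower mean in spleen, at -0.31. Its probes disagreed. A second, dimmer probe had a mean of 10.37 in blood and 10.85 in spleen and so differed by 0.48, and the remaining one differed by 0.16. The latter runs on the strand opposite to the canonical H2A probes and matches Hist1h2ai there at 34 of 38 bases. Hist2h2aa1 differed by 0.42 and Hist1h2ac, near background, by 0.06.

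H2B, the partner of H2A, held both the highest and the lowest difference among the tested members. Its 7 tested genes had a median of 0.89, with 5 higher in spleen, 4 of them at an unadjusted p under 0.05, and 2 lower, 1 of them at such a p. Hist3h2bb measured 10.75, 11.34, 11.58 and 12.18 in blood and 11.87, 13.16, 12.87 and 12.02 in spleen. Spleen 2 and 3 exceeded every blood value, whereas spleen 1 and 4 lay below blood 4. The difference was 1.02 ± 0.39 (SE, n = 4 per tissue; adjusted p = 0.791 in limma), a fold of 2.03.

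Hist1h2bk (H2bc12) measured 10.85, 11.42, 11.81 and 12.2 in blood and 11.89, 13.11, 13.28 and 12.02 in spleen, differing by 1.002 ± 0.41 (SE; limma adjusted p = 0.842). Hist1h2bm (H2bc14) measured 10.91, 11.69, 11.82 and 12.27 in blood and 12.1, 13.08, 13.2 and 12.11 in spleen, and differed by 0.95 ± 0.37 (SE; limma adjusted p = 0.810). In both, as in Hist3h2bb, blood 1 was the lowest blood sample and blood 4 exceeded spleen 1 and 4. Hist1h2ba, which encodes the testis form of H2B, differed by 0.89 ± 0.38 (SE), from a mean of 11.53 in blood to 12.42 in spleen. By the letters they share, these 4 probes count as 1 group. A second Hist1h2bk probe, like no other member's by this measure, had means of 11.33 in blood and 12.25 in spleen. It differed by 0.92, with blood 4 at 11.78 above spleen 1 and 4 at 11.57 and 11.74. Over the 5 matching arrays, Hist3h2bb, Hist1h2bk and Hist1h2bm differed by 0.30, 0.37 and 0.35. There the median of the H2B genes was 0.15, and between blood 4 and spleen 4 it was -0.16.

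**Figure D2:**
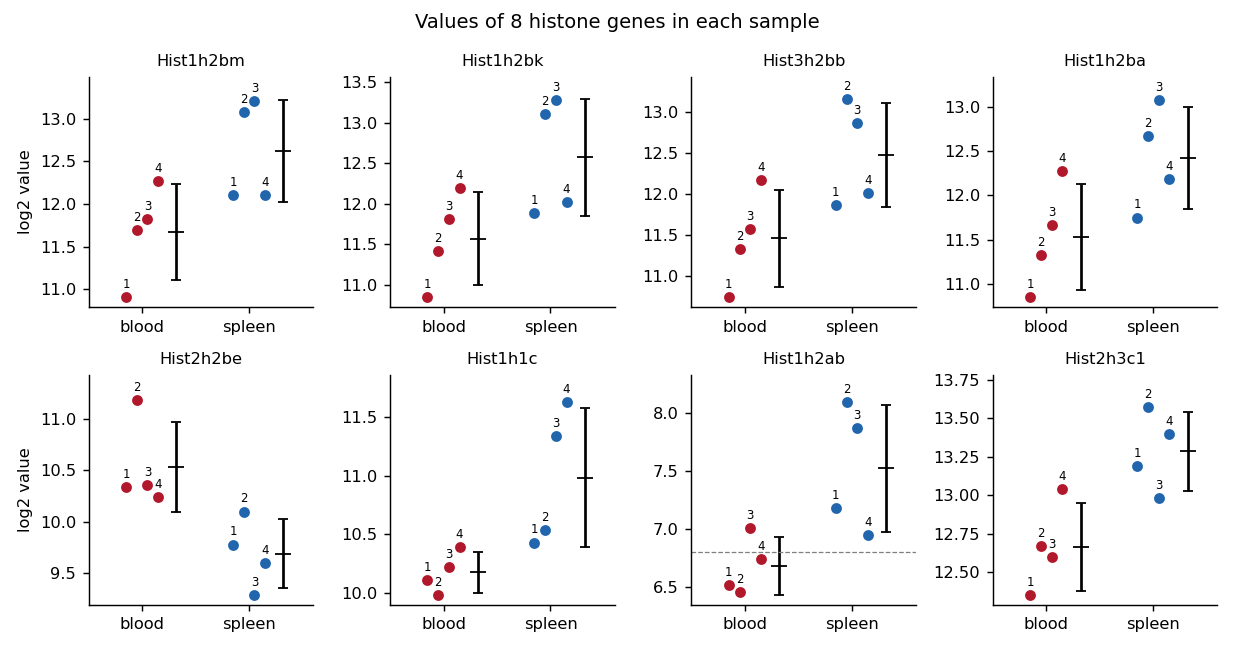
Log2 values of 8 histone genes in each sample, numbered 1 to 4 within blood (red) and spleen (blue), with mean and SD as black bars; each panel has its own scale and the dashed line is the background level of 6.8. The 4 like H2B probes in the upper row show the same pattern, with blood 4 inside the spleen range, while Hist2h2be and Hist1h1c show no overlap between tissues.

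Hist2h2be ran the other way. It measured 10.34, 11.18, 10.36 and 10.24 in blood and 9.78, 10.1, 9.29 and 9.6 in spleen. All spleen values were below all blood values, with blood 2 apart from the other blood samples. The difference was -0.84 ± 0.28 (SE, n = 4 per tissue; adjusted p = 0.729 in limma), or 1.79-fold lower in spleen. It ranged from -0.97 to -0.62 when single samples were left out, and was -0.54 over the 5 matching arrays. Its probe, at chr3:96097408-96097467 on the plus strand (mm7), was like no other member's. Hist2h2be is an H2B gene of cluster 2 whose mRNA can also be made with a poly(A) tail.

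Of the other H2B genes, Hist3h2ba differed by -0.37 and Hist1h2bc by 0.15, both at levels near background. A second probe named Hist1h2bc, which lies far from the first on chromosome 13, reached the background level on 3 of 8 arrays, and the Hist1h2be probe did on none, so that gene was not tested.

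H3, the core histone whose tail carries many regulatory marks, had 2 tested genes, and both had higher means in spleen. The 2 probes, shown because they read neighbouring stretches, overlap by only 20 bases, of which 19 are equal, and were not counted as alike. They lie at chr13:22942103-22942162 and chr3:96121184-96121243, both on the plus strand (mm7).
Hist1h3d: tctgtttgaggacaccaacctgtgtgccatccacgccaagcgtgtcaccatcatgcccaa
Hist2h3c1: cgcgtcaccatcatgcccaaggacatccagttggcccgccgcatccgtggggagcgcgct
Hist2h3c1 measured 12.35, 12.67, 12.6 and 13.04 in blood and 13.19, 13.57, 12.98 and 13.4 in spleen. Only spleen 3 overlapped with blood, below blood 4. The difference was 0.62 ± 0.23 (SE, n = 4 per tissue; adjusted p = 0.780 in limma), a fold of 1.53. Hist1h3d measured 12.37, 12.86, 13.09 and 13.4 in blood and 13.32, 13.66, 13.44 and 13.5 in spleen, with blood 4 again above spleen 1. Its difference was 0.55 ± 0.25 (SE; adjusted p = 0.936 in limma). Over the 5 matching arrays Hist2h3c1 differed by 0.24 and Hist1h3d by 0.08, with an H3 median of 0.16 against 0.58 over all 8.

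H4, the partner of H3, had 5 tested genes, all with higher means in spleen over the 8 arrays and with a median difference of 0.18. That direction did not hold over the 5 matching arrays, where the median was -0.14 (-0.03 in their scanner files), or between blood 4 and spleen 4, where it was -0.65. The median was also 0.01 without spleen 3, 0.08 without blood 2 and 0.03 with array weights, while it was 0.43 without spleen 4, 0.41 without blood 4, 0.34 without blood 3 and 0.28 without spleen 1. Hist2h4 measured 13.7, 12.58 and 14.07 in blood 1 to 3 and 14.13, 14.43, 14.12 and 13.23 in spleen, with blood 4 missing and left out of the fit. Blood 2 was far below the rest, and the others overlapped. Its difference of 0.52 ± 0.42 (SE) had an interval from -0.44 to 1.49, and it was 0.09 without blood 2. Hist1h4a measured 14.33, 13.59, 14.37 and 14.56 in blood and 14.52, 14.9, 14.5 and 14.08 in spleen, differing by 0.29 ± 0.28 (SE), and by 0.08 without blood 2. Hist1h4d, without a value in spleen 2, measured 14.59, 13.79, 15.11 and 14.95 in blood and 15.03, 15.05 and 14.13 in spleen 1, 3 and 4. Blood 2 was the lowest sample for all 3 genes, and the 95% interval of each difference included 0. The Hist1h4d difference of 0.13 ± 0.38 (SE) turned to -0.15 without blood 2, -0.02 without spleen 1 and -0.03 without spleen 3. A second, dimmer Hist1h4d probe, with values in all 8 samples, had means of 12.11 in blood and 12.55 in spleen. It differed by 0.44, and it counts as like the Hist1h4a probe. Hist1h4f had values only in blood 2 and 3, 13.66 and 15.07, and was not tested, although its probe letters are those of Hist1h4d over 50 bases. Hist4h4 differed by 0.18 and Hist1h4i, near background, by 0.06.

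**Figure D3:**
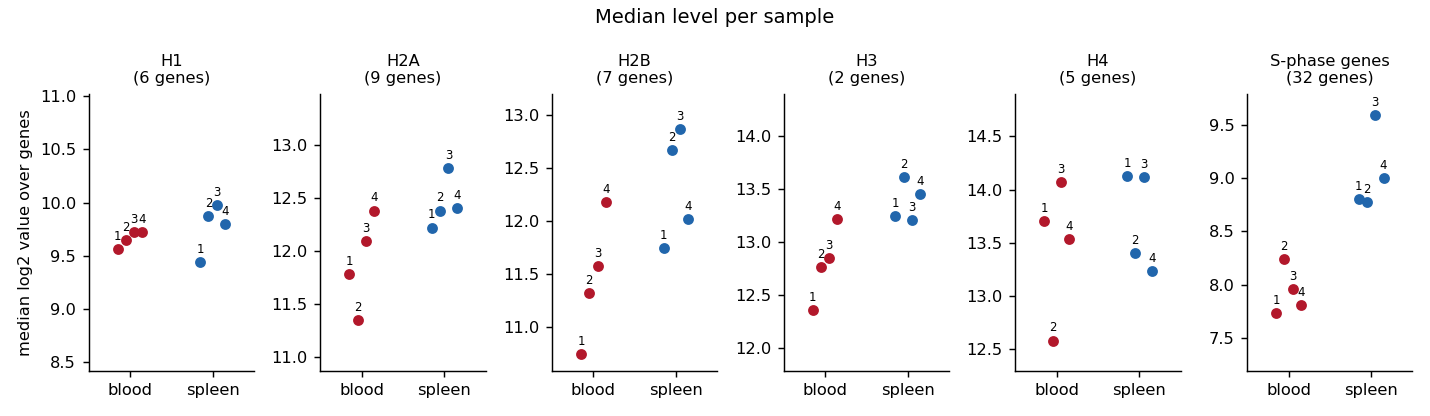
Median log2 value over the tested genes of each histone type and over 32 S-phase genes in each sample, numbered 1 to 4 within blood (red) and spleen (blue); medians skip missing values. In H2B blood 4, at 12.18, lies above spleen 1 and 4, whereas the S-phase medians of spleen, 8.78 to 9.59, all lie above those of blood, 7.73 to 8.24.

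Member probes rich in G and C reached the background level more often than the rest, as probes did over the whole array. Of member probes with over 45% G and C, 24 of 25 (96%) reached the background level on at least 4 arrays, against 10 of 19 (52.6%) with fewer. Over all probes the shares were 89.2% and 57.3%, with the limit of 45% chosen after the values were seen. The remaining member probe over that limit, of Hist1h4f, was bright but had values only in blood 2 and 3. The conserved stem-loop, where most of these mRNAs end, is the run of capitals in the Hist1h3a line that follows, and it was whole in 1 of 44 member probes and in 1 of 41174 probes overall. Probes that hold the stem-loop or a side of it are shown because they lie at the stem-loop end or run past it. Of each, 30 of 60 bases are printed, with the stem-loop letters in capitals. The lower-case c that opens the Hist1h2ae line is a stem-loop letter too.
Hist1h2ab: gaaagttaaccaaaacaaaGGCTCTTTTCA
Hist1h2ae: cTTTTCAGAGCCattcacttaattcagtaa
Hist1h3a: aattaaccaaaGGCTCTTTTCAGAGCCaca
The Hist1h2ab probe stops within the stem-loop and is the one described above, with values from 6.46 to 8.09. That of Hist1h2ae begins within it and continues for 48 bases past it, and it was below background on all 8 arrays. Most of that probe thus lies beyond the stem-loop, where most of these mRNAs end. The Hist1h3a probe holds all of it and 3 bases more, and was above background in blood 1 only, at 7.29. Hist2h2aa2, with 2 probes at background level on 2 arrays each, completes the 5 genes not tested.

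The 3 promoter motifs searched were each more frequent among the members than among all genes, although not every member held each of them. In windows from 250 bases before to 50 after the start (RefSeq, GRCm38.p6), 27 of the 34 genes had an entry, and motifs were searched on both strands. The octamer ATTTGCAT, the site bound by Oct1 in H2B promoters, was found in 4 of 5 H2B and 6 of 10 H2A genes and in none of the H1, H3 or H4 genes, or 37% of members against 1.97% of 27025 genes. CCAAT was found in 92.6% of members against 41.1%, and TATAAA in 66.7% against 15.7%. The 250 bases before the start are shown for 2 H2B genes whose probes gave higher spleen values and for Hist1h1c, with these motifs in capitals. They lie on the plus strand at chr13:21721794-21722043, chr13:22035571-22035820 and chr13:23738557-23738806.
Hist1h2bm: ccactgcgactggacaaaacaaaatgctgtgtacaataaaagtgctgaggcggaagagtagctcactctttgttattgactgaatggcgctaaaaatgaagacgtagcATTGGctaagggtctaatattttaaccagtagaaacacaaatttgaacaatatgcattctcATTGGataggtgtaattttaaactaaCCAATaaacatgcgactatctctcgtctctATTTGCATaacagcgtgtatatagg
Hist1h2bk: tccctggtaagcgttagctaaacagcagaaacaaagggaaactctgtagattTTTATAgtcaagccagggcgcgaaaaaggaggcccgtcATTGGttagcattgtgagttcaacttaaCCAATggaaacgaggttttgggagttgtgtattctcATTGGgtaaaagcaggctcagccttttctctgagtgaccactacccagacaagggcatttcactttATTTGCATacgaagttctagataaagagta
Hist1h1c: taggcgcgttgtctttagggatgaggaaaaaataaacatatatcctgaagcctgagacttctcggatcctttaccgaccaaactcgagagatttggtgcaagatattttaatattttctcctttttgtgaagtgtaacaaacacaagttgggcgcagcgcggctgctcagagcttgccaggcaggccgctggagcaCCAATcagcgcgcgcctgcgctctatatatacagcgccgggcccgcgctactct
Hist1h2bm and Hist1h2bk each hold 1 octamer and 3 CCAAT motifs, and Hist1h1c holds no octamer and 1 CCAAT. A motif here is a match of letters only.

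Genes that work with the histone clusters were read from lists of the same fit. Replacement histone genes had 8 of 10 tested members higher in spleen, with a median of 0.21 and none called. H2afv, an H2A.Z gene, stood at 12.68, 12.38, 12.06 and 12.7 in blood and 12.85, 13.74 and 13.11 in spleen 2 to 4, with no value in spleen 1, and differed by 0.77 ± 0.29 (SE, adjusted p = 0.805 in limma). Cenpa, the centromere form of H3, differed by 0.44 and H2afy, a macroH2A gene, by -0.47. Replacement H3 genes H3f3a and H3f3b differed by 0.17 and 0.21, with intervals from -0.36 to 0.71 and from -0.35 to 0.78.

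Genes for histone transcription, mRNA ends and chaperones had 24 of 36 tested members higher in spleen, a median of 0.10 and none called. At an unadjusted p under 0.05 in limma, 2 were higher and 1 lower, against 3.09% and 2.34% of all genes. Asf1b, a chaperone of H3 and H4 used during replication, measured 7.13, 8.18, 6.73 and 6.82 in blood and 8.13, 8.7, 9.17 and 8.46 in spleen, and differed by 1.40 ± 0.36 (SE, adjusted p = 0.563 in limma). Spleen 1 lay just below blood 2, and the rest did not overlap. Hjurp, the chaperone of Cenpa, differed by 1.36 ± 0.57 (SE), and Coil, which encodes coilin of Cajal bodies, by -1.07 ± 0.31 (SE) with every spleen value lower. Slbp, whose protein binds the stem-loop, measured 10.84, 10.9, 10.96 and 10.73 in blood and 11.21, 11.26, 11.82 and 10.96 in spleen, and differed by 0.45 ± 0.23 (SE, adjusted p = 0.953 in limma).

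Replication and other S-phase genes had 24 of 32 tested members higher in spleen, with a median of 0.45 and none called. Of these, 9 were higher at an unadjusted p under 0.05 in limma, against 3.09% of all genes. Every spleen value lay above every blood value in 7, against 1.88% of all genes. Ccna2, in both counts, had all 4 blood values below the background level and passed the filter through spleen alone. The median was 0.18 without spleen 3 and 0.26 without spleen 4. Top2a, a DNA topoisomerase of dividing cells, measured 6.5, 6.59, 6.52 and 6.86 in blood, 3 of these below the background level, and 8.8, 10.04, 10.77 and 9.22 in spleen. Its difference of 3.09 ± 0.39 (SE) had an adjusted p of 0.0536 in limma. Uhrf1, a maintenance factor of DNA methylation, differed by 2.63 and Rrm2, a ribonucleotide reductase subunit, by 2.61, both with 3 of 4 blood values below the background level. Pcna, the replication clamp, differed by only 0.20, with an interval from -0.30 to 0.70. For the S-phase genes all 4 spleen medians lay above all 4 blood medians, which did not hold for the medians of the histone genes of any type. Over the 5 matching arrays the S-phase median was 0.54 and that of the histone genes 0.08.

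Of 10 tested neutrophil granule genes, 9 had a higher mean in spleen. Their summed level (log2) ran from 11.79 to 14.65 in blood and from 16.1 to 18 in spleen, and Ltf, Camp and Lcn2 differed by 5.54, 5.57 and 3.97. The background level was not reached by blood 2 for Ltf and Camp, nor by 3 of 4 blood samples for Lcn2. Spleen 3 was the highest sample in Ltf, Camp and Lcn2 and in Hist1h2bm, Hist1h2bk and Hist1h2ba, while the like probe of Hist3h2bb was highest in spleen 2. Spleen 2, also the highest in Hist1h2ak and Hist2h3c1, was the lowest spleen sample in Ltf and Lcn2, while spleen 1 was the lowest in Camp. Hist1h1c was highest in spleen 4. Summed levels of B cell markers ran from 12.17 to 12.71 in blood and 11.29 to 12.66 in spleen, of T cell markers from 10.61 to 10.84 and 10.73 to 11.77, of NK cell markers from 9.41 to 9.8 and 9.39 to 9.76, of platelet markers from 11.28 to 12.73 and 10.74 to 11.65, and of erythroid markers from 10.53 to 11.45 and 10.08 to 11.96. Lck, Gzma, Gzmb, Klrb1c, Car2, Eraf and Klf1 were below the background level on all arrays. The part of other cells in the histone differences was not tested.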

How the data were processed

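The deposited scanner files give spot intensity, from Agilent Feature Extraction 9.5.1.1 per the file headers. The authors' value table of all 8 samples is on a log2 scale; the submitters' processing notes name limma, without a version. Where array and column match, the deposited log2 values follow the ranks of the median spot signal, with equal column medians, so they are read as quantile-normalized without background subtraction, which narrows differences of dim probes. In every step of 0.1 from 6.8 up, at least 99.27% of probes on the 5 matching arrays were well above background. Probes were kept at 6.8 or more on at least 4 arrays with at least 3 values per tissue, and the brightest stood for its gene. Accessions named 22951 probes (55.7%) through RefSeq; members kept their scanner names, and 31 of 34 had a RefSeq symbol.

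Spleen was compared with blood by lmFit and eBayes (limma 3.58.1, R 4.3.3, data.table version 1.17.8), adjusted by Benjamini-Hochberg over all 18265 genes at 0.05 and tested on simulated data. Missing values were left out. Members and lists were chosen with earlier results of these data known. Members given per sample were, for each type, the 2 brightest and the 2 with the smallest p, and those without overlap; in other lists, the 3 genes with the smallest p. The genes Slbp, Pcna, H3f3a, H3f3b, Ccna2, Chil1, Elane, Prtn3 and Mmp8, and members named by their difference alone, were added outside this rule after their values were seen. Alternatives were the scanner files, the matching arrays, other filters, probe rules, variance models, sample blocks and leaving out each sample. Coding or exon annotation was not used here.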

Additional observations from a re-analysis of the deposited data

Results flagged for a closer look

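Dixon's test at the 95% level was run on 81 groups of 4 samples (29 histone genes and 16 others, in each tissue without missing values). It marked 5, and chance marks about 1 in 20. Hist2h2be in blood 2 stood at 11.18, against 10.24 to 10.36 in the other blood samples, with the gap taking 0.872 of the range, and without blood 2 its difference between tissues was -0.62. Cenpa stood at 8.41 in blood 3, against 8.09 to 8.12 in the other blood samples. Coil stood at 9.51 in blood 3, against 9.16 to 9.19, and Pcna at 12.37 in spleen 3, against 11.81 to 11.88. Camp stood at 6.34 in blood 2, against 9.37 to 9.87 in the other blood samples.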

How the results depend on the processing

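No member passed adjustment under any alternative, and Hist1h2bk, Hist1h2bm, Hist3h2bb, Hist2h2be and Hist2h3c1 kept their direction in every alternative fitted gene by gene. The first 3 belong to 1 group of like probes. From blood 4 to spleen 4, on the same slide, these 3 fell, from 12.2, 12.27 and 12.18 to 12.02, 12.11 and 12.02. Genes called over the whole table, 0 in the chosen fit, numbered 4 in the scanner files at the 75th percentile, 6 with normexp, 9 with array weights, 8 with a variance trend, 1 with all 8 arrays at background level, 7 with probes averaged and 0 to 3 with single samples left out. The 8 higher members became 0 in the scanner files, 1 with normexp and 5 with array weights. They became 4 with 1 gene per group of like probes (chosen after seeing the data), and 1 to 11 with single samples left out. The 1 lower member became 0 in the scanner files, and stayed at 1 with single samples left out. The 2 members without overlap became 0 in the scanner files and 1 with normexp. They numbered 2 to 9 with single samples left out, where fewer samples overlap less often. These counts were 4 without blood 3, 9 without blood 4, 6 without spleen 1 and 5 without spleen 4. No share over all genes is given for these settings, so a rise from 2 cannot be read from them. The H1 median became 0.01 with normexp, and 0.01 and 0.0025 over the matching arrays in the table and scanner files; H2B became 0.15 and 0.23 there; H3 became 0.22 with normexp and 0.16 and 0.19 there. On the slide of blood 4 and spleen 4, H2B, H3 and H4 medians were -0.16, 0.23 and -0.65. Reversed differences over the matching arrays were -0.08, -0.0032, -0.27, -0.05 and -0.22 for Hist1h1b, Hist1h1d, Hist2h2ac, Hist1h4a and Hist1h4d, and in their scanner files -0.0031, -0.05, -0.22 and -0.16 for the first 4. Hist1h1c was -0.03 with normexp, and Hist1h4d -0.02 with array weights. With single samples left out, Hist2h2ac ran from -0.10 to 0.31 and Hist1h4d from -0.15 to 0.43. The causes were not tested.

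Samples with the same number correlated at 0.092, 0.14, 0.093 and 0.091 in their deviations, and the highest correlation of any other pair was 0.033. Every sample thus correlated best with its own. Since not all were above 0.1, the chosen fit had no block. Whether a number stands for a mouse was not tested. A fixed replicate block called 1 gene and turned Hist1h4d to -0.15. A random replicate block (correlation 0.21) called 13 genes and 0 members. With it, 10 members were higher in spleen at an unadjusted p under 0.05 in limma, against 8 in the chosen fit. A random slide block was not run, since the slides of 3 blood columns are unknown. The number of arrays limits the precision.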
